A study of Mus musculus with 8 samples.

Results

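Genes of cholesterol synthesis, uptake and efflux were followed in plasmacytoid and conventional dendritic cells (pDC and cDC) of leukemia-bearing mice treated with panobinostat or vehicle. The members were 32 genes named from knowledge of the pathway, and each was found in the count table through its Entrez Gene ID. They were 32 of 27179 gene IDs. There were 19 synthesis enzymes, 5 regulators of the SREBP transcription factors, 5 genes of uptake and intracellular transport, and 3 genes of efflux. All 32 passed the filter on low counts, which kept 14238 genes.

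Cholesterol is built from acetyl-CoA through mevalonate, squalene and lanosterol. When sterols in the endoplasmic reticulum are low, SCAP escorts the precursor SREBP-2, the product of Srebf2, to the Golgi apparatus, where proteases release its active part. The active part enters the nucleus and switches on the enzyme genes, usually together with the factor NF-Y, while the INSIG proteins hold SCAP and SREBP back when sterols are plentiful. Liver X receptors (LXR) sense oxidised sterols and act the opposite way, through efflux pumps such as ABCA1 and ABCG1 and through MYLIP, which has lipoprotein receptors degraded.

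All cells were sorted from spleens of C57BL/6 mice carrying a leukemia, and no group was free of leukemia. Panobinostat, an inhibitor of histone deacetylases, or vehicle was given for 2 days, and the labels state no dose and no age. The 4 groups were vehicle pDC, panobinostat pDC, vehicle cDC and panobinostat cDC. Each group held 2 libraries, called biological replicates in the labels, and each library came from a pool of 3 to 6 mice, so differences between single mice are not visible. pDC are known for type I interferon output and cDC for presenting antigen to T cells. The labels' extraction text speaks of leukemia cells being sorted, whereas the titles name DC.

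Total counts were 13124861 to 20657429 per library. The libraries carried the markers of their labelled cell type. The summed level of 10 pDC markers was 12790 to 21060 CPM (read counts scaled by library size) in pDC libraries and 183 to 276 CPM in cDC libraries. A list of 10 cDC markers, some of which pDC also express, summed to 7879 to 22680 CPM in pDC and 19740 to 34390 CPM in cDC. Panobinostat pDC replicate 2 stood apart. It held 10745 genes with a count, against 14927 in replicate 1 of that group and 16109 to 19950 in the other libraries. It was also the library in which long transcripts were most under-represented. Across genes, which are not independent replicates, its deviation from the mean of all libraries correlated with transcript length at rho = -0.30. Of the members, 3 had fewer than 5 counts in it and none did in the other 7 libraries. Those 3 were Hsd17b7 and Mylip with 1 count each and Abca1 with 0.

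**Figure D1:**
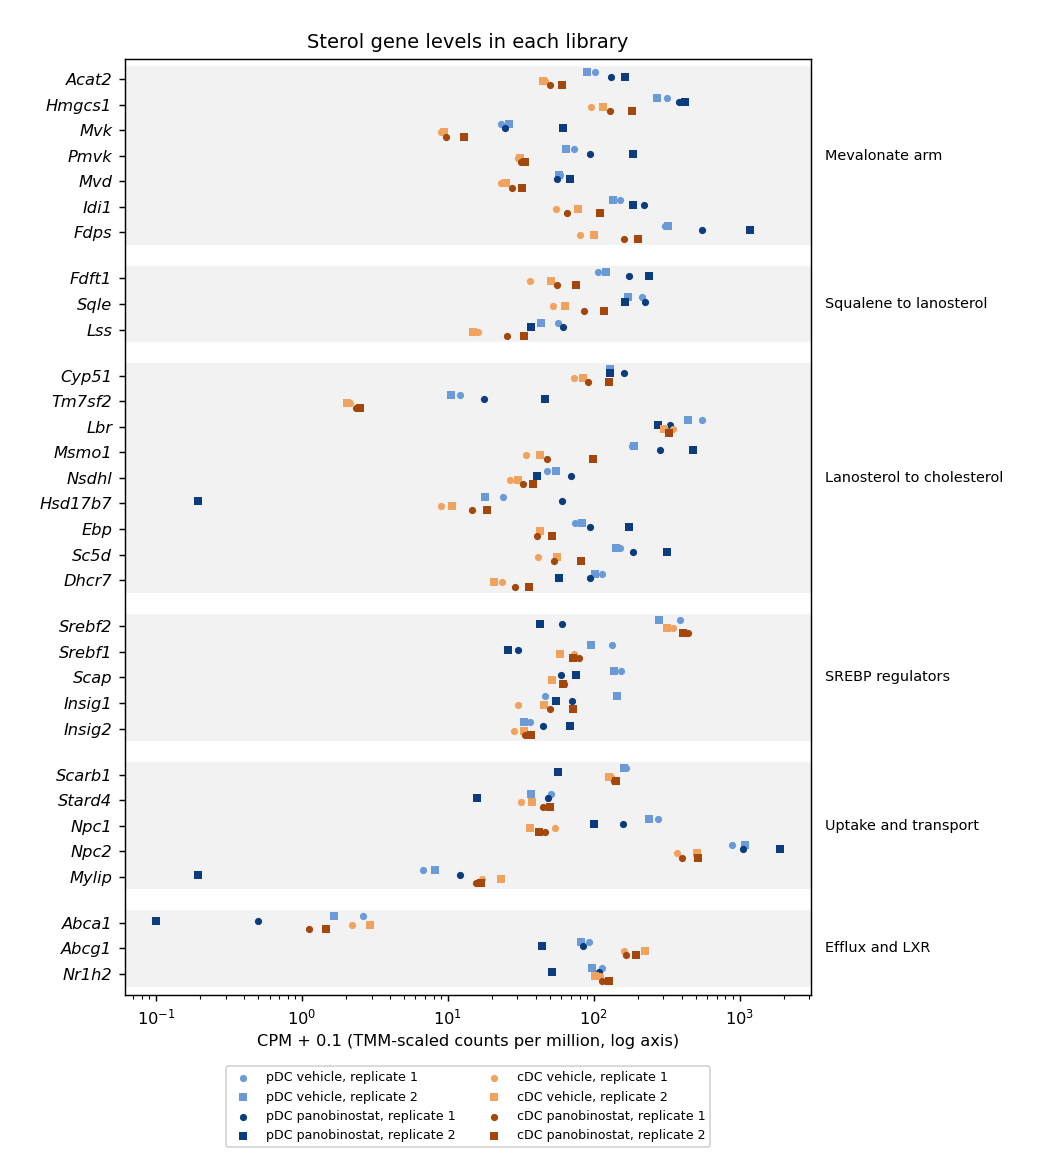
Level of each of the 32 sterol genes in each of the 8 libraries, in CPM + 0.1 on a log axis; colours are groups and marker shapes replicates 1 and 2. Synthesis enzymes lay higher in vehicle pDC than in vehicle cDC, Srebf2 was lower in both panobinostat pDC libraries than in the other 6, and Hsd17b7, Mylip and Abca1 were near 0 in panobinostat pDC replicate 2.

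The promoter sequences of the members were examined where they were at hand, which left out Sqle, Fdft1, Scarb1, Fdps, Stard4, Abcg1 and Npc1. RefSeq promoters (build GRCm38.p6, 250 bases before to 50 bases after a start) were at hand for 25 of the 32 genes, as 33 promoters. They were searched on both strands for the sterol regulatory element core TCACNCCAC, the letters SREBP is known to bind, and for the NF-Y box CCAAT. The core was present in 1 of 33 member promoters (3.03%) and in 408 of all 32851 promoters (1.24%). The NF-Y box was present in 22 of 33 (66.7%), and in 37.4% of all promoters. Among 19 promoters of known SREBP-2 targets it was present in 15 (78.9%). A match describes letters in this window and is not a measured site. Stretches from 4 promoters are shown because they hold the core and a run of NF-Y boxes (Hmgcs1), several NF-Y boxes near the start (Msmo1 and Idi1) or the single box found for Srebf2. Each is written 5′ to 3′ on the gene's strand, and capitals mark the core (TCACCCCAC, in Hmgcs1) and the NF-Y boxes (CCAAT, or ATTGG when the box lies on the other strand).
Hmgcs1, chr13:119690101-119690330, plus strand: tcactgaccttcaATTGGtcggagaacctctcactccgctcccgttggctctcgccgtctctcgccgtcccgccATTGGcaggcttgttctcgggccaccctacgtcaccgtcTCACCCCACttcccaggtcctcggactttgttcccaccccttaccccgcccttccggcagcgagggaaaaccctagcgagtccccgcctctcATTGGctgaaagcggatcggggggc
Msmo1, chr8:64733609-64733758, minus strand: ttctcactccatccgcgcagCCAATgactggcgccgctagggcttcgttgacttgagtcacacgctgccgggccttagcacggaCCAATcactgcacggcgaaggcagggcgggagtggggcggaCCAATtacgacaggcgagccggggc
Idi1, chr13:8885541-8885605, plus strand: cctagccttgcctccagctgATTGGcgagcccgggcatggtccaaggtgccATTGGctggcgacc
Srebf2, chr15:82147114-82147158, plus strand: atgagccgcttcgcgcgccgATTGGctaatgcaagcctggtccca

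The first comparison set pDC against cDC in vehicle. Sterol genes were higher in pDC: 12 of the 32 members (37.5%) were called higher and 0 lower by edgeR's quasi-likelihood test (Benjamini-Hochberg adjusted p under 0.05). In the same direction 5.01% of all 14238 tested genes were called. By edgeR at an unadjusted p under 0.05, 23 members were higher and 1 was lower, against 11.2% and 13.3% of all tested genes. DESeq2 called 14 members higher (8.01% of all tested genes) and 1, Abcg1, lower (12.1%). By limma-voom 12 were called higher (6% of all tested genes) and 0 lower (7.95%). The libraries of the DC types did not overlap for 25 members that were higher in pDC (35.1% of all tested genes) and for 2, Mylip and Abcg1, that were lower (35.5%). In bulk libraries fewer expressing cells and less RNA per cell cannot be told apart.

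All 19 synthesis enzymes had higher levels in both pDC libraries than in both cDC libraries (35.1% of all tested genes). Their log2 fold changes were 0.62 (Lbr) to 2.49 (Tm7sf2), with a median of 1.39. The median of all tested genes was 0.02. Of the enzymes, 10 were called.

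In the mevalonate arm 4 of 7 genes were called. Acat2, the thiolase that joins acetyl-CoA units, had 101.3 and 90.5 CPM in vehicle pDC and 46.4 and 45.1 CPM in vehicle cDC. Hmgcs1, the HMG-CoA synthase, had 318.9 and 270.2 CPM in pDC and 95.1 and 116 CPM in cDC. Both genes kept their 2 pDC libraries well above the cDC libraries. Their log2 fold changes were 1.07 ± 0.21 and 1.48 ± 0.23 (SE, n = 2 libraries per group, as for every fold change here), with edgeR adjusted p = 0.0297 and 0.015.
Mvd, the decarboxylase that makes the first isoprene unit, had 58.6 and 57.7 CPM in pDC and 23.0 and 25.1 CPM in cDC. Fdps, which makes farnesyl diphosphate, had 307.1 and 324.2 CPM in pDC and 80.5 and 100.7 CPM in cDC. Neither gene overlapped between the cell types. Their log2 fold changes were 1.27 ± 0.26 and 1.80 ± 0.37 (edgeR adjusted p = 0.0322 and 0.033). The kinases Mvk and Pmvk and the isomerase Idi1 had log2 fold changes of 1.44, 1.17 and 1.10 without passing the test.

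All 3 genes from squalene to lanosterol were called. Fdft1, the squalene synthase, had 106.9 and 121.4 CPM in pDC and 36.3 and 51.0 CPM in cDC (log2 fold change 1.39 ± 0.28, edgeR adjusted p = 0.0318). Sqle, the squalene epoxidase and a rate-limiting enzyme, had 212.6 and 171.5 CPM in pDC and 52.3 and 63.0 CPM in cDC (1.74 ± 0.27, adjusted p = 0.0144). Lss, the lanosterol synthase, had 56.6 and 43.2 CPM in pDC and 16.1 and 14.8 CPM in cDC (1.69 ± 0.37, adjusted p = 0.04). In each case the lower pDC library exceeded the higher cDC library. With the replicate number as a block Lss was not called (adjusted p = 0.0585), and the lysosomal gene Npc2 was (adjusted p = 0.0214, against 0.088 without the block).

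Of the 9 genes that turn lanosterol into cholesterol, 3 were called. Dhcr7, the reductase of the last step, had 113.9 and 101.4 CPM in pDC and 23.4 and 20.8 CPM in cDC. Msmo1, the methylsterol oxidase, had 184.2 and 188.5 CPM in pDC and 34.0 and 42.4 CPM in cDC. These were 4.87-fold differences for both genes, with log2 fold changes of 2.28 ± 0.31 and 2.29 ± 0.42 (edgeR adjusted p = 0.00956 and 0.0238).
Sc5d, a sterol desaturase, had 150.7 and 141.4 CPM in pDC and 41.3 and 55.5 CPM in cDC (1.59 ± 0.35, adjusted p = 0.0389). Tm7sf2 and Lbr code for reductases of the same step. Tm7sf2 had 12.1 and 10.4 CPM in pDC against 2.05 and 1.94 CPM in cDC, a log2 fold change of 2.49 ± 0.62 (edgeR adjusted p = 0.0582). Per kilobase of transcript, Lbr was the more abundant of the pair in both cell types, at 142.3 against 7.64 CPM per kb in vehicle pDC and 92.9 against 1.36 CPM per kb in vehicle cDC.

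The 2 other called members lie outside the enzymes. Scap, the escort of SREBP, had 153.5 and 137 CPM in pDC and 50.8 and 52.0 CPM in cDC (1.50 ± 0.20, edgeR adjusted p = 0.00901). Npc1, the membrane protein that exports cholesterol from lysosomes, had 277.4 and 238.3 CPM in pDC and 53.8 and 36.2 CPM in cDC. Its log2 fold change of 2.52 ± 0.31 was a 5.73-fold difference (adjusted p = 0.00685). Npc2, its soluble partner, had the highest level per length of all members, at 300 CPM per kb in vehicle pDC and 133.7 CPM per kb in vehicle cDC, and missed the threshold as given above.

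Srebf2 itself overlapped between the vehicle groups, at 389.4 and 278.6 CPM in pDC and 347 and 317.1 CPM in cDC. The cDC values lay inside the pDC range, and the log2 fold change was 0.01 ± 0.24 (edgeR adjusted p = 0.994). Insig2, Stard4, Abca1 and Nr1h2 (the gene of LXR beta) overlapped between the cell types too. Abcg1 and Mylip, known LXR targets, had log2 fold changes of -1.15 ± 0.34 (adjusted p = 0.091) and -1.44 ± 1.49 (adjusted p = 0.677), with lower levels in both pDC libraries than in both cDC libraries. Srebf1, also an LXR target, went the other way, with higher levels in both pDC libraries (0.80 ± 0.25, edgeR adjusted p = 0.108). The LXR target Abca1 overlapped, as given above.

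**Figure D2:**
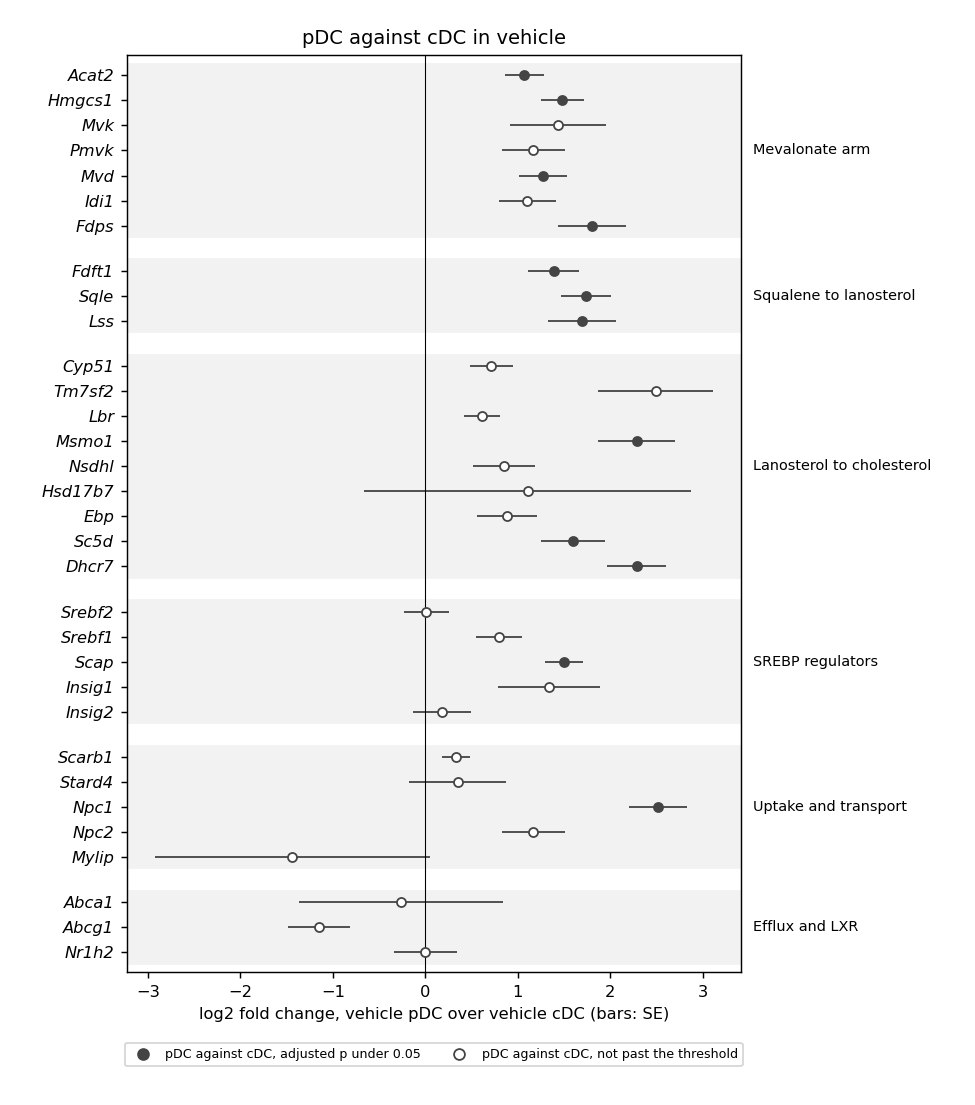
Log2 fold change of vehicle pDC over vehicle cDC for each sterol gene, with SE bars; filled points are the 12 members with an edgeR adjusted p under 0.05. All 19 enzymes lay to the right of 0, Srebf2 at 0.01, and the efflux genes at or to the left of 0.

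The count of 12, all higher in pDC, changed with the libraries fitted. A group left with 1 library was assumed to vary like the other groups. Leaving out 1 library moved the count of members called, and the count over all tested genes moved as well. The ranges of both are given at the end. Correcting each library for GC content and transcript length left 3 calls (Sqle, Dhcr7 and Npc1). The fold changes of the 12 called members stayed above 0 in all 18 alternatives. Markers of other cells also differed between the cell types. The summed level of 12 macrophage markers was 28.8 and 64.2 CPM in vehicle pDC and 381 and 477 CPM in vehicle cDC. That of 10 monocyte and neutrophil markers was 2085 and 3834 CPM in vehicle pDC and 212 and 280 CPM in vehicle cDC. In vehicle pDC S100a9 was at 0 in both libraries, Mpo and Elane in replicate 1, and Ly6g in replicate 2. In vehicle cDC Ly6g alone was at 0, in both libraries. The sum does not tell whether pDC or other cells made these transcripts. The 8 B cell markers and 10 NK and T cell markers overlapped. Their part in the result was not tested.

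The second comparison asked how panobinostat moved these genes in pDC. Srebf2 and Scarb1 fell, and they were the 2 called members of 32 (6.25%), while 0.0913% of all tested genes were called (13 genes). Panobinostat libraries of pDC lay above both vehicle libraries for 12 members (15.7% of all tested genes) and below them for 8 (26.5%). By edgeR at an unadjusted p under 0.05, 6 members were higher and 7 lower, against 5.65% and 9.24% of all tested genes. DESeq2 called 5 members (Srebf2, Srebf1, Scap and Scarb1 lower, Fdps higher) and 6.36% of all tested genes, and limma-voom called 0 of either.

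Srebf2 (Entrez Gene 20788, chromosome 15, 82147269 to 82205379 in mm10) had 389.4 and 278.6 CPM in vehicle pDC, against 60.1 and 43.0 CPM in panobinostat pDC. Both treated libraries lay far below both vehicle libraries. Srebf2 was 6.47-fold lower, a log2 fold change of -2.69 ± 0.26 (edgeR adjusted p = 0.0464). With the replicate block the adjusted p was 0.0526.
Scarb1 (Entrez Gene 20778, chromosome 5, 125277087 to 125341094) codes for a receptor that takes up cholesterol esters from high-density lipoprotein. Its levels were 165.3 and 160.8 CPM in vehicle pDC and 55.9 and 56.4 CPM in panobinostat pDC, with almost no spread inside either group. Scarb1 was 2.90-fold lower, a log2 fold change of -1.54 ± 0.15 (edgeR adjusted p = 0.0499). With the replicate block the adjusted p was 0.0832.

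The other SREBP genes did not pass the test. Srebf1, which codes for the SREBP of fatty acid synthesis, had 132.8 and 96.2 CPM in vehicle and 30.4 and 25.7 CPM in panobinostat pDC (log2 fold change -2.03 ± 0.26, edgeR adjusted p = 0.0908). Scap had 153.5 and 137 CPM in vehicle and 59.8 and 76.0 CPM in panobinostat pDC (-1.10 ± 0.20, adjusted p = 0.134). For both genes the treated libraries lay below the vehicle libraries. Insig1, an SREBP-2 target as well as a brake on it, varied most between vehicle replicates, at 46.5 and 144.7 CPM, and the panobinostat values of 70.9 and 55.5 CPM lay between them. Insig2 had 36.4 and 33.2 CPM in vehicle and 44.5 and 69.1 CPM in panobinostat pDC, higher in both treated libraries without passing the test (0.71 ± 0.31, adjusted p = 0.356).

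The values depended on a correction for transcript length and GC content. The transcripts of Srebf2, Srebf1 and Scap are long and rich in GC, at 5077, 4299 and 4227 bases and 57.9%, 58.4% and 59.1% GC, and that of Scarb1 has 2444 bases and 56.2% GC. The medians of the tested genes were 2810 bases and 50.3%. When each library was corrected for GC content and transcript length, the log2 fold changes in pDC were -0.74 for Srebf2 (adjusted p = 0.416), -0.28 for Scarb1 (0.732), -0.09 for Srebf1 (0.942) and 1.02 for Scap (0.388). With these offsets and panobinostat pDC replicate 2 left out, they were -1.77 (adjusted p = 0.0284), -1.13 (0.0304), -1.22 (0.0441) and -0.59 (0.106). That last setting was chosen after seeing the data. It leaves 1 panobinostat pDC library, which is assumed to vary like the other groups, so these p-values hold no replicate check of the treated pDC. The same holds for the next 2 settings. Without offsets, Srebf2 was at -2.53 when replicate 2 was left out (adjusted p = 0.016) and at -2.97 when replicate 1 was (adjusted p = 0.000527), and Scarb1 at -1.60 and -1.54.
Leaving out either vehicle pDC library or any 1 of the 4 cDC libraries ended both calls, with log2 fold changes of -2.95 to -2.44 for Srebf2 and -1.60 to -1.53 for Scarb1. Adjusted p over all 19 alternatives ran from 2.83e-13 to 0.973 for Srebf2 and from 6.11e-18 to 0.973 for Scarb1. Both stayed below 0 in all 19.

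**Figure D3:**
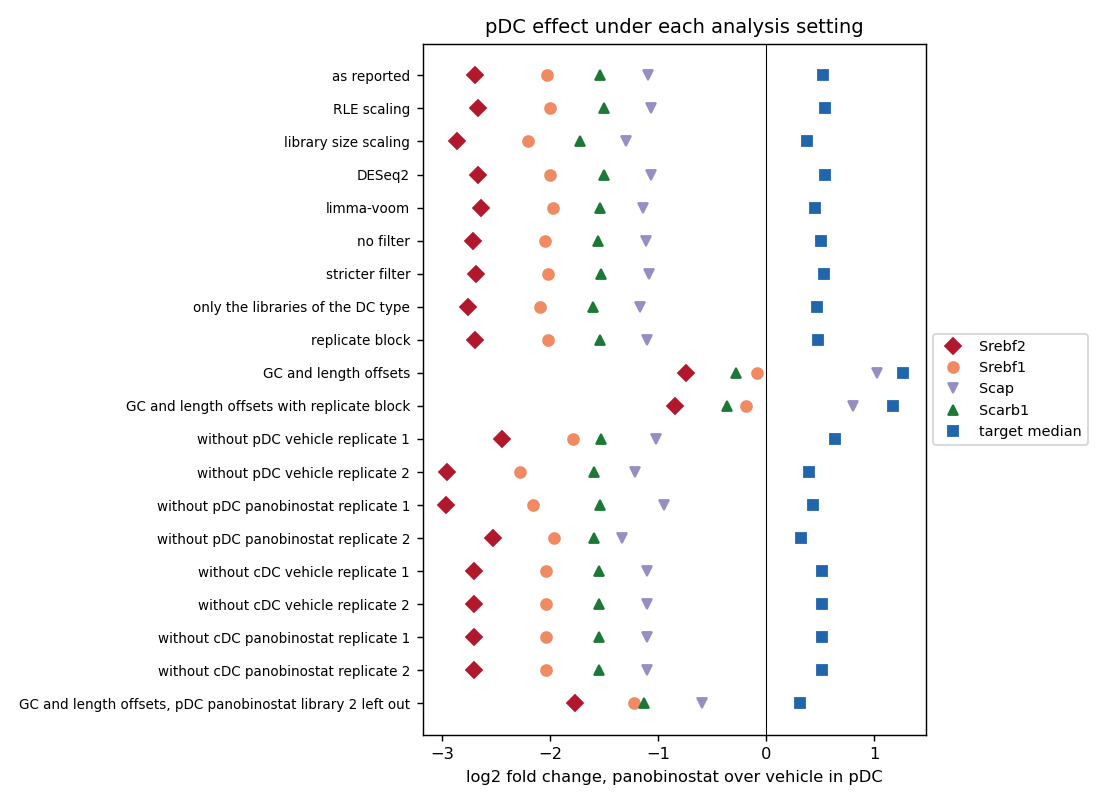
Log2 fold change of panobinostat over vehicle in pDC for Srebf2, Srebf1, Scap and Scarb1 and the median of 20 SREBP-2 target members, under the reported analysis and 19 alternatives. The 4 genes shifted toward 0 or above with offsets for GC content and length, and the target median stayed above 0 throughout.

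Most synthesis enzymes had higher values in treated pDC, although the test was not passed. None of 19 was called by edgeR or limma-voom, and DESeq2 called 1 (Fdps, higher) and 6.36% of all tested genes. By edgeR at an unadjusted p under 0.05, 6 enzymes were higher (5.65% of all tested genes) and 1 was lower (9.24%). Of the 19 enzymes, 16 had a log2 fold change above 0, as had 6261 of all 14238 tested genes. In both panobinostat libraries 11 were higher than in both vehicle libraries (15.7% of all tested genes). Lower in both were 2, Lbr and Dhcr7 (26.5%). The median was 0.54 over the enzymes and -0.14 over all tested genes.

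Fdps had 307.1 and 324.2 CPM in vehicle pDC and 554.2 and 1176 CPM in panobinostat pDC. Both treated libraries were higher, replicate 2 by far the most, and the log2 fold change was 1.45 ± 0.36 (edgeR adjusted p = 0.194).
Msmo1 had 184.2 and 188.5 CPM in vehicle and 282.4 and 480.6 CPM in panobinostat pDC (1.03 ± 0.40, adjusted p = 0.312). Fdft1 had 106.9 and 121.4 CPM in vehicle and 174.3 and 237.5 CPM in panobinostat pDC (0.85 ± 0.28, adjusted p = 0.255). Pmvk had 73.1 and 64.7 CPM in vehicle and 93.8 and 186.4 CPM in panobinostat pDC (1.02 ± 0.34, adjusted p = 0.261). In each of these genes replicate 2 carried the higher treated value. The transcripts of Fdps, Msmo1 and Pmvk have 1310, 2044 and 1156 bases, under the median of 2810, and that of Fdft1 has 3698. Over the 19 alternatives the log2 fold changes ran from 0.71 to 1.89 for Fdps and from 0.32 to 1.46 for Msmo1. They ran from 0.39 to 1.43 for Pmvk and from 0.56 to 2.28 for Fdft1. The part of transcript length in these values was not tested.
Hmgcs1, Acat2, Idi1, Cyp51, Tm7sf2, Ebp and Sc5d were likewise higher in both treated libraries, with log2 fold changes of 0.17 (Cyp51, the lanosterol demethylase) to 1.51 (Tm7sf2). For Cyp51 the lower treated library, at 128.9 CPM, barely exceeded the higher vehicle library, at 128.8 CPM. Mvk, Mvd, Sqle, Lss, Nsdhl and Hsd17b7 overlapped between the groups.
Hsd17b7, a sterol ketoreductase, had 24.0 and 17.9 CPM in vehicle pDC and 60.7 and 0.0929 CPM in panobinostat pDC, the last from 1 count. The 2 treated libraries thus lay on opposite sides of the vehicle libraries.
Lbr, a nuclear membrane protein as well as a reductase, had 554.9 and 443.8 CPM in vehicle and 332.4 and 277.2 CPM in panobinostat pDC (-0.71 ± 0.20, edgeR adjusted p = 0.215). Dhcr7 had 113.9 and 101.4 CPM in vehicle and 94.9 and 57.5 CPM in panobinostat pDC (-0.50 ± 0.30, adjusted p = 0.464). They were the 2 enzymes with both treated libraries below both vehicle libraries.

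Of the 8 transport and efflux members Scarb1 was the 1 that passed the test. Of the other 7, Npc1 and Abca1 were lower in both treated pDC libraries than in both vehicle libraries. Npc1 had 277.4 and 238.3 CPM in vehicle and 159.1 and 99.9 CPM in panobinostat pDC (-0.99 ± 0.30, adjusted p = 0.236). Npc2 had 890.7 and 1089 CPM in vehicle and 1059 and 1891 CPM in panobinostat pDC (0.58 ± 0.34, adjusted p = 0.454). The partners thus differed in sign, and only Npc1 was without overlap.
Abca1, the pump that loads cholesterol onto apolipoprotein, was barely detected, with 50 and 29 counts in vehicle pDC and 8 and 0 counts in panobinostat pDC. Its log2 fold change of -3.20 ± 1.24 missed the threshold (adjusted p = 0.309). The count of 0 allows up to 3 counts at this depth. Abcg1, Nr1h2, Stard4 and Mylip overlapped between the groups. For these 4 genes panobinostat replicate 2 held the lowest value of the pDC libraries.
Among markers of other cells, the cDC, macrophage, monocyte and neutrophil, B cell, and NK and T cell lists overlapped between vehicle and panobinostat pDC. The 10 pDC markers summed to 12790 and 14720 CPM with vehicle and 15540 and 21060 CPM with panobinostat, and the part of this shift in the results was not tested.

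The third comparison was panobinostat against vehicle in cDC. No member was called, nor any other gene (0% of 14238 tested). By edgeR at an unadjusted p under 0.05, 206 genes (1.45%) and 4 members (Sqle, Fdps, Lss and Hmgcs1, all higher, as were 0.78% of all tested genes) passed. DESeq2 called 15 genes (0.105%) and 0 members, and limma-voom called 0 genes. The panobinostat libraries lay above both vehicle libraries for 22 members (22.2% of all tested genes) and below them for 2 (18.8%). Of the 32 members, 28 had a log2 fold change above 0 (7176 of all 14238 tested genes), with a median of 0.31. The median of all tested genes was 0.00.

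Fdps had 80.5 and 100.7 CPM in vehicle cDC and 161.3 and 201 CPM in panobinostat cDC (log2 fold change 1.0 ± 0.36). Lss had 16.1 and 14.8 CPM in vehicle and 25.4 and 33.0 CPM in panobinostat cDC (0.92 ± 0.36). Sqle had 52.3 and 63.0 CPM in vehicle and 85.2 and 117.2 CPM in panobinostat cDC (0.81 ± 0.26). Both treated libraries exceeded both vehicle libraries in these genes, with an edgeR adjusted p = 1 for each.
Hmgcs1 had 95.1 and 116 CPM in vehicle and 128.6 and 182.9 CPM in panobinostat cDC (0.56 ± 0.23, adjusted p = 1). Replicate 2 was the higher library in both groups, as it was for Fdps and Sqle.
The SREBP genes had values in the same direction. Srebf2 had 347 and 317.1 CPM in vehicle and 443 and 406.9 CPM in panobinostat cDC, higher in both treated libraries (0.36 ± 0.24, edgeR adjusted p = 1). Scap had 50.8 and 52.0 CPM in vehicle and 62.9 and 61.9 CPM in panobinostat cDC (0.28 ± 0.20, adjusted p = 1).
Srebf1 had 73.0 and 58.6 CPM in vehicle and 79.2 and 72.2 CPM in panobinostat cDC, and the groups overlapped. Scarb1 had 131.4 and 127 CPM in vehicle and 137.1 and 141 CPM in panobinostat cDC (0.11 ± 0.15, adjusted p = 1).
The 2 members below both vehicle libraries, Abca1 and Mylip, were among the 4 LXR targets. The remaining LXR targets, Abcg1 (-0.08 ± 0.33) and Srebf1 (0.20 ± 0.25), overlapped between the groups. Abca1 had 45 and 61 counts in vehicle and 21 and 25 counts in panobinostat cDC (-1.05 ± 1.11), and Mylip had 17.1 and 22.9 CPM in vehicle and 15.6 and 16.9 CPM in panobinostat cDC (-0.30 ± 1.46).
Among markers, the 10 cDC genes summed to 19740 and 25040 CPM with vehicle and 30050 and 34390 CPM with panobinostat. The pDC list was lower in both treated cDC libraries (183 and 214 against 217 and 276 CPM), the monocyte and neutrophil list was higher (342 and 315 against 280 and 212 CPM), and the other lists overlapped. Their part in the result was not tested.

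**Figure D4:**
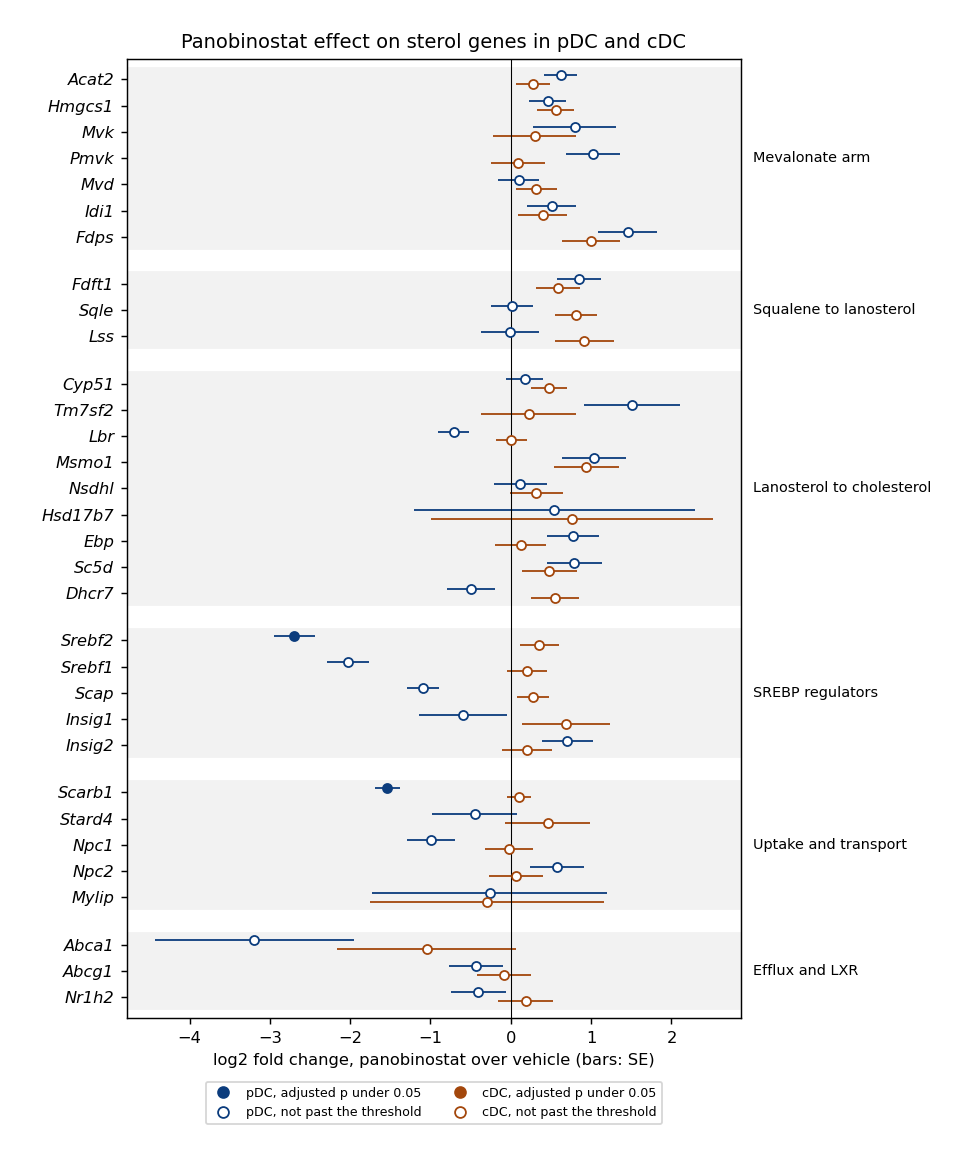
Log2 fold change of panobinostat over vehicle for each sterol gene in pDC and cDC, with SE bars; filled points passed an edgeR adjusted p of 0.05. Only Srebf2 and Scarb1 in pDC are filled, most enzymes lay above 0 in both cell types, and all cDC estimates except that of Abca1 lay between -0.30 and 1.0.

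Whether panobinostat acted differently in pDC and cDC was tested as a difference of the 2 effects. Of all tested genes 1 was called by edgeR (0.00702%), and of the members 0 were, with 6 at an unadjusted p under 0.05, all lower in pDC, as were 5.99% of all tested genes. DESeq2 called 290 genes (2.04%) and 4 members (Srebf2, Scarb1, Srebf1 and Scap), and limma-voom called 0 genes. The difference was -3.05 ± 0.35 log2 units for Srebf2 (edgeR adjusted p = 0.17), -1.64 ± 0.21 for Scarb1 (0.214), -2.23 ± 0.36 for Srebf1 (0.311) and -1.38 ± 0.28 for Scap (0.359). A difference of the effects between the cell types was therefore not shown by edgeR. Without panobinostat pDC replicate 2 the differences were -2.86 for Srebf2, -1.69 for Scarb1, -2.15 for Srebf1 and -1.60 for Scap. Without replicate 1 they were -3.33, -1.65, -2.37 and -1.23. Each of these fits holds 1 panobinostat pDC library, so they give no replicate check. The difference for Scap turned positive with offsets for GC content and length (0.66, adjusted p = 0.812). For Srebf2 these offsets gave -1.18, and leaving out panobinostat pDC replicate 2 as well gave -2.23.

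Srebf2 was then set against 20 known SREBP-2 target members, the 18 enzymes other than Lbr together with Insig1 and Stard4. The 3 comparisons above share libraries, since the vehicle groups serve both the treatment effects and the comparison of cell types, so each is given by its own values. In vehicle the target median was 1.36 higher in pDC than in cDC on the log2 scale while Srebf2 differed by 0.01. With panobinostat in pDC the target median was 0.52, while Srebf2 was at -2.69. Of the targets 16 of 20 were above 0, as were 6261 of all 14238 tested genes. With panobinostat in cDC the target median was 0.48, and Srebf2 was at 0.36. Of the targets 20 of 20 were above 0, as were 7176 of all 14238 tested genes. In both treated libraries 17 were higher than in both vehicle libraries (22.2% of all tested genes).

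The same contrast was visible library by library. On the log2 CPM scale Srebf2 exceeded the mean of its targets by 2.25 and 1.78 in vehicle pDC. In panobinostat pDC it lay below them, at -0.83 and -1.06. In cDC the excess was 3.57 and 3.25 with vehicle and 3.53 and 3.01 with panobinostat. The panobinostat pDC libraries were thus the only 2 of the 8 in which Srebf2 lay under its targets. The mean log2 CPM of the targets was 6.36 and 6.34 in pDC with vehicle, 6.74 and 6.49 in pDC with panobinostat, 4.87 and 5.06 in vehicle cDC, and 5.27 and 5.66 in panobinostat cDC. This mean was higher in each treated library than in both vehicle libraries of that cell type. By the median of the targets the pDC groups overlapped, at 6.56 in panobinostat replicate 1 against 6.58 in vehicle replicate 2.
The Srebf2 change minus the target median was -3.22 in pDC and -0.12 in cDC. In pDC it was -2.0 with offsets for GC content and length, where the target median was 1.26, and -2.84 without panobinostat replicate 2, where that median was 0.32. The target transcripts had a median length of 2728 bases and 49.5% GC, from 41.9% to 59.8%. These differences are given as a description, with no test.

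**Figure D5:**
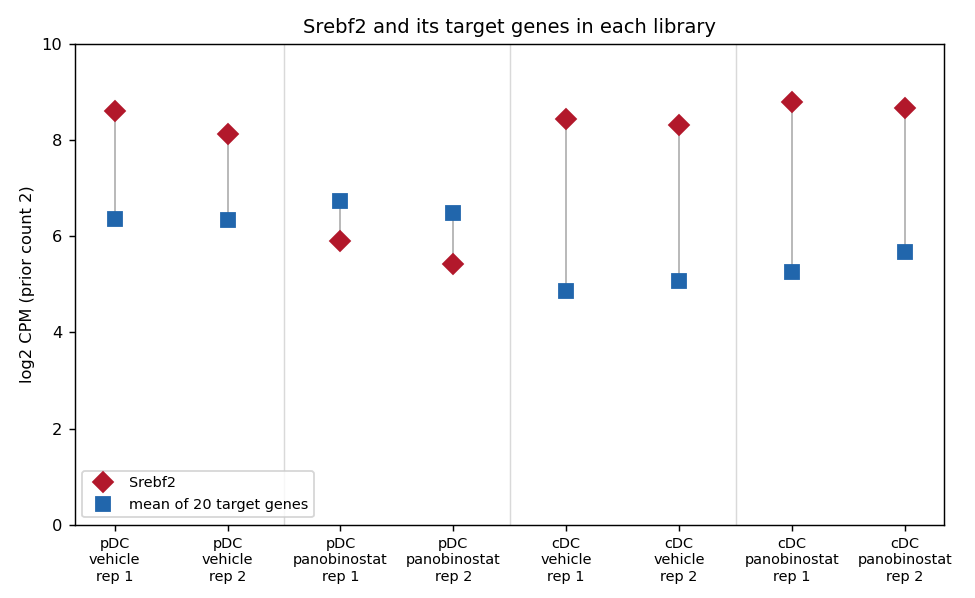
Log2 CPM of Srebf2 (diamonds) and the mean log2 CPM of 20 SREBP-2 target members (squares) in each of the 8 libraries, joined by a line. Srebf2 lay above the targets in 6 libraries, by 1.78 to 3.57, and below them in both panobinostat pDC libraries.

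Related pathways gave the setting. Of all tested genes, 14.9% in pDC, 1.45% in cDC and 24.5% between the cell types had an unadjusted edgeR p under 0.05. DESeq2 called 6.36%, 0.105% and 20.1%, and limma-voom 0%, 0% and 13.9%. Of 13 genes of fatty acid synthesis under SREBP-1, 12 were tested, and edgeR called 0 with panobinostat in either cell type. At an unadjusted p under 0.05 there were 2, both lower, in pDC and 0 in cDC, and DESeq2 called 1 in pDC and 0 in cDC. Their median log2 fold change was -0.68 in pDC, with 11 below 0 (7881 of all 14238 tested genes), and 0.12 in cDC. Between vehicle pDC and cDC edgeR called 1, higher in pDC, as were 714 of all 14238 tested genes. DESeq2 called 2 and limma-voom 1. The edgeR call was Fads2, a fatty acid desaturase, at 101.9 against 3.76 CPM (log2 fold change 4.76 ± 0.42, edgeR adjusted p = 0.00243).
Of 11 genes that process or degrade SREBP and its partners, edgeR called 0 in any comparison, with medians of -0.51 for panobinostat in pDC and 0.16 in cDC. At an unadjusted p under 0.05 there were 4 in pDC, 0 in cDC and 3 between the cell types, while DESeq2 called 4, 0 and 2. Of 14 genes of the isoprenoid branch edgeR called 0 in any comparison, with medians of -0.18 and 0.09. Here 0, 0 and 3 had an unadjusted p under 0.05, and DESeq2 called 0, 0 and 1.
Of 16 genes of sterol esterification, oxidation and lipid uptake, 15 were tested. Panobinostat gave 0 edgeR calls in both cell types, with medians of -0.30 and -0.02. In pDC 4 had an unadjusted p under 0.05 and DESeq2 called 2, and in cDC both counts were 0. With panobinostat limma-voom called 0 genes of these 4 lists in either cell type. Between the cell types it called 1 of the SREBP-processing genes and 0 of the isoprenoid genes. Of the 15 genes of sterol esterification, oxidation and lipid uptake, edgeR called 2 higher and 3 lower in vehicle pDC than in vehicle cDC. Over all 14238 tested genes these calls were 714 and 671. At an unadjusted edgeR p under 0.05 there were 7 of the 15, while DESeq2 and limma-voom each called 6. Nceh1, a cholesteryl ester hydrolase, was at 154.2 against 16.9 CPM (3.19 ± 0.19, adjusted p = 0.00123), and Stard3, a sterol transporter of late endosomes, at 125.1 against 52.8 CPM (1.25 ± 0.19, adjusted p = 0.0132). Soat1, which esterifies cholesterol, was at 39.6 against 121.3 CPM (-1.61 ± 0.18, adjusted p = 0.00475), and Cd36, a lipid scavenger receptor, at 16.4 against 220.1 CPM (-3.74 ± 0.40, adjusted p = 0.00423). The third gene lower in pDC, Msr1, was named after its values were seen and was near the limit of detection in pDC (0.13 against 2.04 CPM).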

How the data were processed

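RNA was measured in sorted pDC and cDC in 4 groups of 2 libraries. Trizol, a Direct-zol kit and a NEBNext low-input library kit were used, per the labels' protocols. The submitters' processing notes name bcl2fastq (2.17.1.14), FastQC (0.11.6), cutadapt (2.1), HISAT2 (2.1.0) on mm10 and featureCounts (Subread 2.0.0) for the reads. The authors deposited whole-number read counts per Entrez gene ID. Strand setting and annotation of the counting were not given in the sources used here, so genes that overlap others are uncertain. D5W in a column name was read as the vehicle, dextrose in water, and LBH as panobinostat (LBH589). The members, lists and rules were chosen with earlier results of these data known. Of 27179 gene IDs, 25275 had a symbol.

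The counts were fitted with edgeR (4.0.16, in R 4.3.3). The filter was filterByExpr with a minimum count of 10 and a minimum total of 15, libraries were scaled by TMM, and all 8 libraries were fitted with 1 coefficient per group, leaving 4 residual degrees of freedom. Contrasts were tested by quasi-likelihood F, adjusted by Benjamini-Hochberg over 14238 genes, at a threshold of 0.05. The SE is the log2 fold change divided by the square root of F, and the prior count of log2 CPM was 2. Total counts were 13124861 to 20657429 per library. Reads without molecular identifiers are not independent molecules, so the floor of 3 counts covers counting error only. Levels per kilobase used the length of a GENCODE M21 transcript.

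Alternatives were RLE and library-size scaling, DESeq2 (1.42.0), limma-voom (limma 3.58.1), no filter, and at least 50 counts in 2 libraries. Others were libraries of 1 DC type, the replicate block, offsets for GC content and length, block and offsets together, and each library left out. The offsets used splines with 5 degrees of freedom. Genes without a length or GC value stayed in the fit and received the median offset of the library. One added after seeing the data left out panobinostat pDC replicate 2 under the offsets. Every group has replicates 1 and 2 in the labels. Deviations of same-numbered libraries from their group means correlated across genes at 0.15 to 0.49 in all 6 pairs of groups. This was above the limit of 0.1 set for treating same-numbered libraries as pairs. In every group replicate 2 had the lower rho with transcript length, and the part of this in the correlations was not tested. Although the limit was passed, the reported analysis carries no block, since the labels do not say what a number shares. The blocked fit is an alternative, and with it 0 members were called for panobinostat in pDC.

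Described in full were Srebf2, the members called in any comparison and the 4 members with the smallest p in each. From each related list up to 4 called genes were named. The scripts were tested on simulated data with seeded fold changes. Recovery was required only for the larger seeded changes at a fixed spread. What could be detected at the spread of these data is not shown by that test.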

Additional observations from a re-analysis of the deposited data

How the results depend on the processing

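In the comparison of panobinostat with vehicle in pDC, where 13 genes and 2 members were called, RLE scaling called 2 genes and 0 members. Library-size scaling called 0 members, and the target median was 0.38 there. DESeq2 called 906 genes and 5 members, and no filter called 68 genes. Calls of genes and members were 0 with limma-voom, with the pDC libraries alone, with the replicate block, with the GC and length offsets, and with offsets and block. With the offsets the target median was 1.26, and 1.17 with the block added, and Srebf2 minus that median was -2.0 and -2.01. With the offsets and panobinostat pDC replicate 2 left out, a setting added after seeing the data, 448 genes and 4 members were called, with a target median of 0.31 and a difference of -2.08. Leaving out 1 library gave 0 to 8227 genes, 0 to 24 members, target medians of 0.32 to 0.64 and differences of -3.40 to -2.84. Genes rose to 8227 without panobinostat pDC replicate 1 and 719 without replicate 2. Hsd17b7 in pDC ran from -7.73 without panobinostat pDC replicate 1 (edgeR adjusted p = 0.000248) to 1.48 without replicate 2. For cDC, DESeq2 called 15 genes, and leaving out 1 library gave target medians of 0.26 to 0.71. For the difference of effects (1 gene, 0 members), genes were 0 with RLE scaling, library-size scaling, limma-voom, the replicate block, the offsets, and offsets with block. DESeq2 called 290 genes and 4 members, no filter 5 genes and 1 member, and the added setting 27 genes and 1 member. Target medians were 0.71 with the offsets and 0.63 with the block added. Leaving out 1 library gave 0 to 6457 genes, 0 to 18 members and target medians of -0.33 to 0.32, and Mylip ran from -5.93 without panobinostat pDC replicate 1 (edgeR adjusted p = 0.000971) to 0.97 without replicate 2. For pDC against cDC (1385 genes, 12 members), DESeq2 called 2861 genes, the offsets 867 genes and 3 members, offsets with block 580 genes and 3 members, and the added setting 6781 genes and 27 members. Target medians there were 1.23 with RLE scaling, 1.23 with DESeq2, 1.61 with the offsets, 1.63 with the block added and 1.62 in the added setting. Leaving out 1 library gave 288 to 5531 genes, 0 to 25 members and target medians of 1.20 to 1.55. A group left with 1 library was assumed to vary like the others. The causes were not tested. With the replicate block for the pairing, the members called were 0 in pDC and 12 between cell types, and beyond Srebf2, Scarb1, Lss and Npc2 the block changed no member's call. Pooled mice and 2 libraries per group limit every pDC value. So does panobinostat pDC replicate 2, with the lowest total count, the fewest genes with a count and under-represented long transcripts. Low members such as Abca1 cannot be resolved from these counts.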
